A study of Mus musculus with 16 samples.

Results

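Immediate early genes are the first genes that a stimulated neuron transcribes, and 9 of them were followed in the mouse vomeronasal organ (VNO), the olfactory organ that detects pheromones: *Fos*, *Fosb*, *Junb*, *Egr1*, *Egr3*, *Arc*, *Npas4*, *Nr4a1* and *Ier2*. They were taken as a list of symbols known for their response to neuronal activity, and all 9 were present among the 24340 genes shared by the tables of read counts and of RPKM, which is the read count scaled to gene length and library size. The 16 libraries came from 8 closed lines of Hsd:ICR mice at generation 88. HR lines 3, 6, 7 and 8 had been bred for high voluntary wheel running, and Control lines 1, 2, 4 and 5 had been bred without that selection. Each line gave 1 male and 1 female library, and each library was made from the VNOs of 3 mice pooled at 12 weeks of age, so that every group of a sex and linetype held 4 libraries. The line was the unit of replication, and a pool hides the differences between its mice. What the mice smelled or did in the hours before dissection is not given in the sources used here, and the labels name no stimulus for any group.

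In neurons, calcium entry and growth factor signaling activate the kinases that phosphorylate CREB and the partners of SRF, the regulators that switch on these genes within minutes. The products are short-lived, and most are transcription factors that act on a later set of genes. Staining for *Fos* or *Egr1* is a common way to find the vomeronasal sensory neurons (VSNs) that answered an odor, but the same genes are also induced by growth factors, injury and mechanical stress in cells that are not neurons.

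CREB can bind in the sequence before the start of a gene, and the promoters of the AP-1 members are shown here. The levels of these members moved together in the female libraries, as did those of some other members. The part of CREB sites in this was not tested. AP-1 is the dimer formed by a FOS protein and a JUN protein, and *Fos*, *Fosb* and *Junb* each encode a subunit. RefSeq (GRCm38.p6) promoters were searched for 5 of the 9 members, namely *Fos*, *Fosb*, *Junb*, *Npas4* and *Nr4a1*. No promoter of *Egr1*, *Egr3*, *Arc* or *Ier2* was searched, so nothing is said of sites in these genes. The 250 bases that end at the base before the start are printed 5′ to 3′ on the strand of the gene, with the core of the CREB site, TGACG on either strand, in capitals. They lie at chr12:85473640-85473889 on the plus strand for *Fos*, at chr7:19310046-19310295 on the minus strand for *Fosb* and at chr8:84978749-84978998 on the minus strand for *Junb*.
Fos: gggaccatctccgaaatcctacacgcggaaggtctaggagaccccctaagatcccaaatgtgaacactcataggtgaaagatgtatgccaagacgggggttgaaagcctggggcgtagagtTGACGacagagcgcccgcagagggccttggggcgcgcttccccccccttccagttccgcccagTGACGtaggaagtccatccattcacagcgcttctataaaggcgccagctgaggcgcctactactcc
Fosb: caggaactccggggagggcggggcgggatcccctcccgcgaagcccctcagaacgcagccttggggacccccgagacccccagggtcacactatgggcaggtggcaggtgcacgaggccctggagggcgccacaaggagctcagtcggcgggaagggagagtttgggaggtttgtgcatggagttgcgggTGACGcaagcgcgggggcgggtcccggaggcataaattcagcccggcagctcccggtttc
Junb: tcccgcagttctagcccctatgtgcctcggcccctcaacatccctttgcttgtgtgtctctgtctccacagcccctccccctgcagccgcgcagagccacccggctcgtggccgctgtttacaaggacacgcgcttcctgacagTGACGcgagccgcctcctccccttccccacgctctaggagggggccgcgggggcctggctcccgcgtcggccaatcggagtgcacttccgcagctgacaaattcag

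TGACG stood in all 5 member promoters that were searched, against 17.8% of the 32851 RefSeq promoters of the same length. The 5 windows held 58.4% to 74.4% G or C, and the shares over all promoters were not matched for base content. *Fos* held it at -129 and -66, counted from the gene start to its first base, *Fosb* at -60 and *Junb* at -106. *Npas4* held it at -179 and -169, and *Nr4a1* held it 4 times. The full CREB site TGACGTCA was in 0 of the 5 windows and in 1.55% of all promoters, the CArG box that SRF binds in 0 of 5 and 1.47%, and the AP-1 site TGANTCA in 0 of 5 and 6.75%. GCGGGGGCG, the letters bound by EGR proteins, were in *Fosb* and *Nr4a1* and in 2.57% of all promoters, and in both genes they overlapped GGGCGG, the Sp1 letters found in 4 of 5 windows and 32.7% of all. These are matches of letters on both strands within 250 bases, and binding was not measured. Sites farther from the start were not searched, so a count of 0 holds for these windows only.

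Depth ran from 15998552 to 70875276 counts on genes in a library, with a median of 37366329. Counts were scaled to library size (CPM) with TMM factors, and all 9 members were among the 16507 genes that passed the filter on low counts. *Omp*, *Gnao1* and *Gnai2*, which mark VSNs, were present in every library, but *Trpc2*, which encodes their main transduction channel, was listed at 0 counts in all 16. Per kilobase, the members were ordered as *Ier2*, *Junb*, *Nr4a1*, *Egr1*, *Fos*, *Arc*, *Egr3*, *Npas4* and *Fosb* in males, from a median RPKM of 9.57 for *Ier2* to 0.128 for *Fosb*. The order in females was the same except that *Junb*, with a median RPKM of 12.3, stood above *Ier2*, with 10.7. The ranges of neighbors in these orders overlapped over the 8 libraries of a sex, so that only members further apart were separated by more than their spread. The RPKM tables of the sexes were scaled separately, and RPKM values are compared only within a sex.

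*Fos* (chr12:85473890-85477273, plus strand, GRCm38, with all gene positions from GENCODE M21) was low in most libraries and high in a few. In males it was at 2.15, 4.18, 4.95 and 2.6 CPM in Control lines 1, 2, 4 and 5, and at 5.79, 2.64, 4.23 and 9.06 CPM in HR lines 3, 6, 7 and 8. In females it was at 11.0, 3.14, 4.00 and 15.5 CPM in the same Control lines, and at 23.6, 2.23, 3.45 and 2.80 CPM in the same HR lines. The 3 highest of the 16 values were thus the female pools of HR line 3, Control line 5 and Control line 1, the other 5 female pools lay among the males, and the linetypes overlapped in both sexes. Between the lowest and the highest library *Fos* differed 11.0-fold.

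*Junb* (chr8:84974484-84978718, minus strand), the JUN partner in AP-1, had a higher floor and a narrower range. It was at 11.7, 14.1, 17.0 and 12.5 CPM in males of Control lines 1, 2, 4 and 5, and at 16.6, 12.9, 11.3 and 15.8 CPM in males of HR lines 3, 6, 7 and 8. Its level in females was 19.8, 13.5, 21.1 and 32.8 CPM in the Control lines and 33.0, 15.1, 18.3 and 14.4 CPM in the HR lines. HR line 3 and Control line 5 were again the 2 highest female pools, and here 5 of the 8 female pools were above the highest male pool. *Junb* shares 351 bases with *Prdx2* on the opposite strand, and whether reads were counted by strand is not given in the sources used here. *Fosb* (chr7:19302696-19310051, minus strand), the other FOS subunit, was rare, at 9 to 40 reads a library, and its highest CPM values, 1.36 and 1.08, were those of the same 2 female pools.

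The zinc-finger factors *Egr1* and *Egr3* followed another order. *Egr1* (chr18:34859823-34864984, plus strand), which regulates synaptic genes, was at 6.25, 15.6, 20.3 and 7.09 CPM in males of Control lines 1, 2, 4 and 5, and at 24.9, 6.98, 9.32 and 25.4 CPM in males of HR lines 3, 6, 7 and 8. In females it was at 27.7, 12.4, 19.7 and 12.6 CPM in the Control lines and at 38.7, 5.69, 13.8 and 7.54 CPM in the HR lines. HR line 3 was highest in females, but Control line 5, which was second for *Fos*, *Fosb* and *Junb*, was the fifth of the 8 female pools for *Egr1*. *Egr3* (chr14:70077203-70082614, plus strand) was highest in the female pool of Control line 4, at 7.36 CPM, followed by the male and female pools of HR line 3 at 6.38 and 6.10 CPM, and lowest in males of HR line 7, at 0.876 CPM. In the other 3 male Control pools it lay between 1.75 and 1.89 CPM, against 5.21 CPM in Control line 4.

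*Npas4* (chr19:4984355-4990316, minus strand), a bHLH-PAS factor that responds rather selectively to calcium entry in neurons, varied most. It was at 0.170, 0.205, 1.21 and 0.788 CPM in males of Control lines 1, 2, 4 and 5, and at 0.780, 0.589, 1.19 and 0.233 CPM in males of HR lines 3, 6, 7 and 8. In females it was at 0.722, 0.464, 1.16 and 7.40 CPM in the Control lines and at 4.11, 0.268, 0.864 and 0.242 CPM in the HR lines. Control line 5 and HR line 3 females held 116 and 112 reads and every other library 9 to 52, so that the lower values rest on few reads. The range over the 16 libraries was 43.5-fold.

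*Nr4a1* (chr15:101254269-101274795, plus strand), an orphan nuclear receptor, was at 5.25, 8.57, 15.5 and 17.7 CPM in males of Control lines 1, 2, 4 and 5, and at 23.9, 16.1, 11.2 and 13.9 CPM in males of HR lines 3, 6, 7 and 8. In females it was at 14.4, 10.1, 13.7 and 33.9 CPM in the Control lines and at 42.6, 13.6, 8.76 and 7.83 CPM in the HR lines. HR line 3 was the highest pool in each sex. *Arc* (chr15:74669083-74672570, minus strand), whose product acts at synapses on the uptake of glutamate receptors, ranged from 2.02 CPM in males of HR line 7 to 8.15 CPM in females of Control line 1. *Ier2* (chr8:84661331-84662852, minus strand), a nuclear protein of the early response, had the narrowest range, from 9.83 to 19.8 CPM or 2.01-fold.

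**Figure D1:**
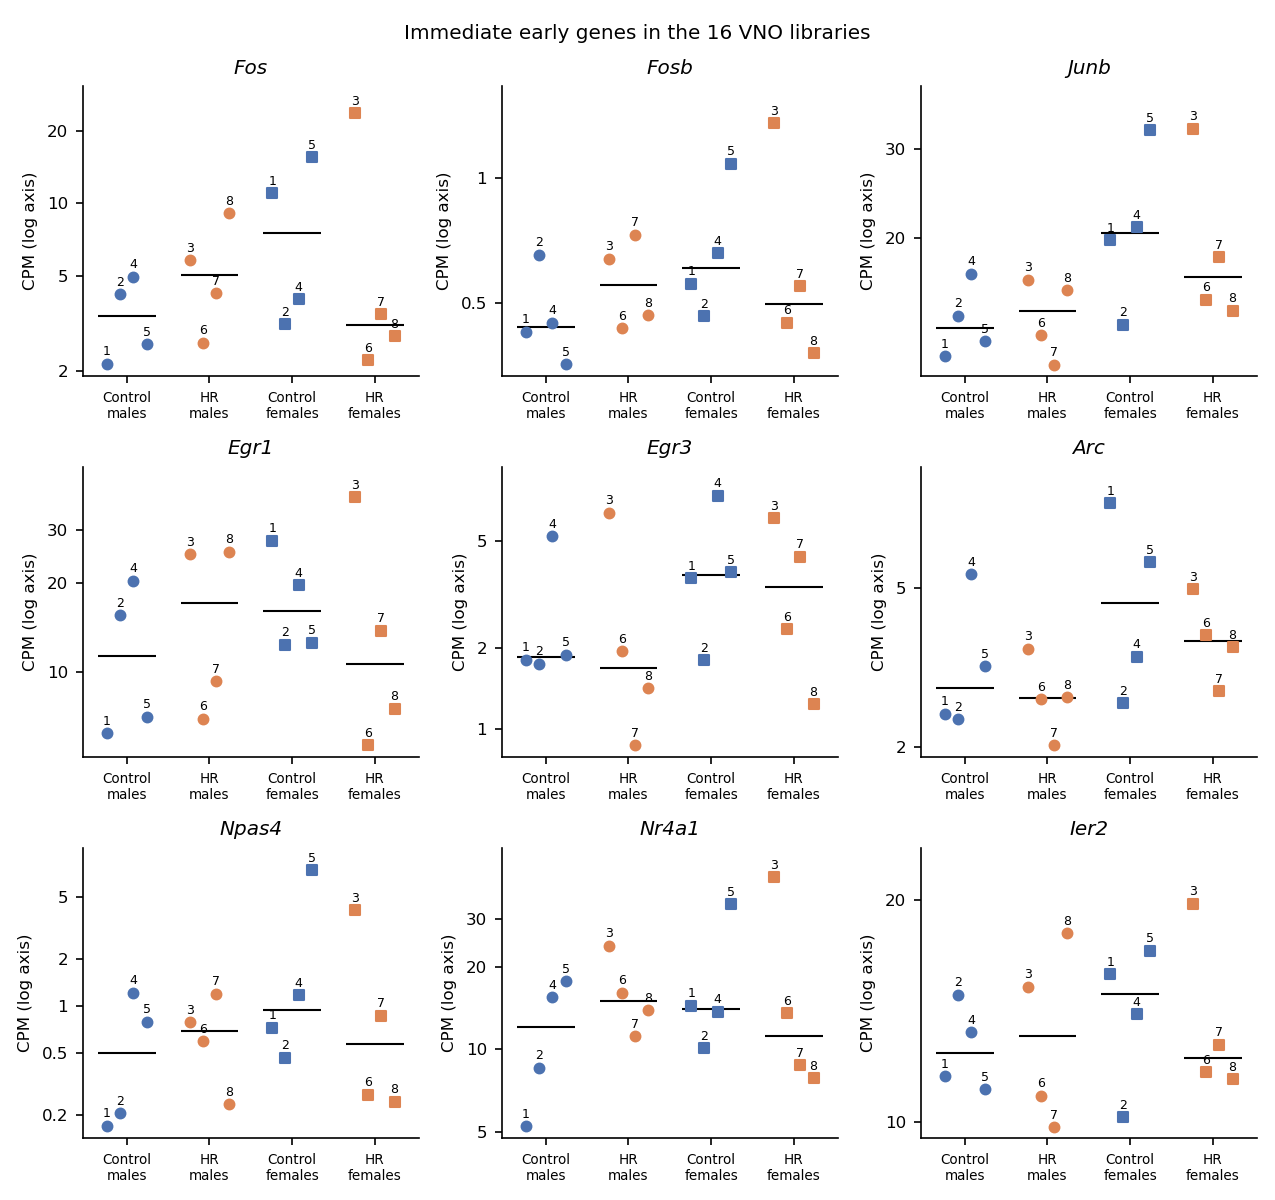
Each panel plots the CPM of 1 member on a log axis in the 16 libraries, with circles for males, squares for females, blue for Control and orange for HR lines, the line number beside each point and a bar at the median of each group of 4. The female pools of HR line 3 and Control line 5 are the 2 highest of the 16 for *Fos*, *Fosb*, *Junb*, *Npas4* and *Nr4a1*, and HR and Control points overlap in every panel.

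The female pool of HR line 3 was thus the highest library for 6 of the 9 members and among the highest 2 for 7, and that of Control line 5 was among the highest 2 for 6. Among the males HR line 3 was among the highest 2 for 7 members. The pools with the lowest member values were spread over lines, since among the females HR line 8 was lowest for 4 members, Control line 2 for 3 and HR line 6 for 2. The libraries that stood apart were 1 of each linetype, and the values without them are given below. They were picked by their member values, so *p* values without them are descriptions. Control line 5 females also had the smallest library, while across the 16 libraries the mean log2 CPM of the members and the log2 depth had a Pearson's r of -0.23 after centering within sex.

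The members varied more between pools than most genes. After centering on the mean of each sex, the standard deviation (SD) of log2 CPM was 1.39 for *Npas4*, 1.02 for *Fos*, 0.90 for *Egr3*, 0.89 for *Egr1* and 0.79 for *Nr4a1*, and these 5 were in the highest 10% of the 16507 genes tested. *Arc*, *Fosb*, *Junb* and *Ier2* had SDs of 0.50, 0.49, 0.39 and 0.31, against a median of 0.23 over all genes, and all 9 members were above that median. *Npas4* was at the 98.2nd percentile and *Ier2* at the 63.0th. Without the female pools of HR line 3 and Control line 5 (14 libraries) the SD was 0.95 for *Npas4*, 0.92 for *Egr3*, 0.85 for *Egr1*, 0.73 for *Fos* and 0.57 for *Nr4a1*, all 9 members were still above the median of 0.19, and 4 were in the highest 10%, where *Nr4a1* was no longer found. Rare genes have more counting error, which is part of the SD of *Npas4* and *Fosb*.

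The first question was whether breeding for wheel running had shifted the level of these genes in the VNO. No member passed the test between HR and Control lines with sex in the fit (edgeR quasi-likelihood test, Benjamini-Hochberg adjusted *p* under 0.05). The background was 4 of 16507 genes, or 0.0242%. At an unadjusted *p* under 0.05 the count was also 0 of 9 members, against 3.3% of genes, and DESeq2 and limma called 0 members. This fit takes the male and the female pool of a line as separate samples, and with their counts summed per line 0 genes and 0 members were called. The median log2 fold change of the members was 0.02, and that of all genes tested was 0.0025.

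The AP-1 members differed little on average, with wide intervals. The HR minus Control log2 fold change was 0.29 (SE 0.50, 95% interval -0.78 to 1.35, adjusted *p* = 0.9997) for *Fos*, where the mean over lines was 6.73 ± 5.51 CPM (SD, n = 4 lines) in HR and 5.94 ± 2.41 CPM (SD, n = 4 lines) in Control lines. For *Fosb* it was 0.13 (interval -0.45 to 0.71) and for *Junb* -0.04 (interval -0.44 to 0.37). The interval of *Junb* thus reached from 1.36-fold lower to 1.29-fold higher in HR lines, and that of *Fos* from 1.72-fold lower to 2.56-fold higher.

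Among the other members *Arc* had the largest change, -0.35 (SE 0.24, interval -0.87 to 0.16, unadjusted *p* = 0.165, adjusted *p* = 0.9997). *Npas4* was at -0.28 (interval -1.81 to 1.25), *Egr3* at -0.13 (interval -1.06 to 0.80), *Egr1* at 0.15 (interval -0.74 to 1.03), *Nr4a1* at 0.25 (interval -0.56 to 1.05) and *Ier2* at 0.02 (interval -0.30 to 0.35), each with an adjusted *p* of 0.9997. *Ier2* had the narrowest interval of the 9. The HR and Control libraries overlapped in CPM for all 9 members. Over line means of log2 CPM, an exact two-sided permutation test of 4 HR against 4 Control lines gave unadjusted *p* values from 0.286 for *Arc* to 1 for *Ier2*, where the smallest *p* this design can give is 0.0286.

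These fold changes turned with single lines. Without HR line 3, *Fos* went to -0.41, *Fosb* to -0.17, *Egr1* to -0.40, *Nr4a1* to -0.29 and *Ier2* to -0.12, and without Control line 5 *Npas4* went to 0.61. *Arc* stayed below 0 when each line was left out in turn, at -0.53 to -0.24. With only the 2 female pools of HR line 3 and Control line 5 left out, *Fos* was at -0.10, *Egr1* at -0.23 and *Ier2* at -0.02, and 0 of 9 members were called.

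**Figure D2:**
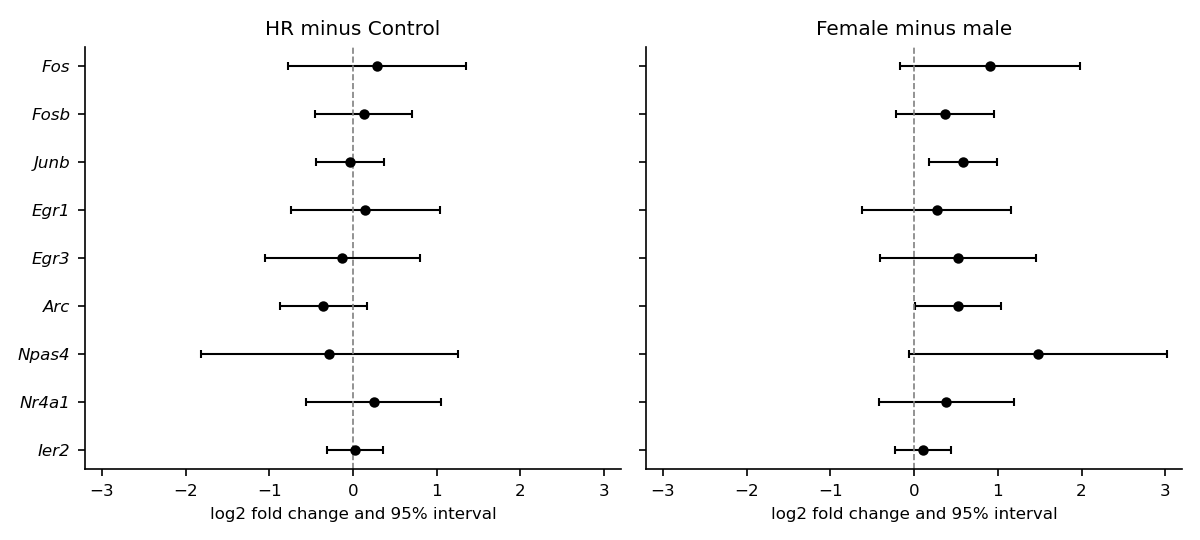
The log2 fold change of each member, with its 95% interval as the bar, is plotted for HR minus Control lines on the left and for females minus males on the right, from the edgeR fit on 16 libraries. Every interval on the left includes 0, and on the right all 9 estimates lie above 0 while only the intervals of *Junb* and *Arc* exclude it.

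Sex by itself also gave no call. Of the 9 members 0 passed the adjusted test between females and males, against a background of 31 genes or 0.188%, although all 9 estimates were above 0, with a median log2 fold change of 0.52 against -0.01 over all genes. At an unadjusted *p* under 0.05 there were 2 members against 8.08% of genes, and these were *Junb* (0.58, SE 0.19, unadjusted *p* = 0.00795, adjusted *p* = 0.368) and *Arc* (0.53, SE 0.24, unadjusted *p* = 0.0462, adjusted *p* = 0.606). *Junb* was higher in the female than in the male pool in 6 of the 8 lines and *Arc* in 7. *Npas4* had the largest estimate, 1.48 (interval -0.06 to 3.03), followed by *Fos* with 0.91 (interval -0.16 to 1.98). With the line as a block 87 genes were called, 3 members had an unadjusted *p* under 0.05 and again 0 members were called.

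The female excess was smaller when the same 2 pools were left out. They were picked by their high member values, so leaving them out lowers the female side by construction. Without the female pools of HR line 3 and Control line 5, 6 of the 9 estimates went below 0, with *Fos* at -0.02, *Npas4* at -0.04 and *Nr4a1* at -0.28. *Junb*, *Arc* and *Egr3* stayed above 0, at 0.29, 0.41 and 0.35. The smallest *p* was that of *Junb* (edgeR, unadjusted *p* = 0.0458, adjusted *p* = 0.516). With each whole line left out in turn, male and female pools together, all 9 estimates stayed above 0. They ran from 0.35 to 1.24 for *Fos*, 0.81 to 1.81 for *Npas4* and 0.03 to 0.22 for *Ier2*. Each sex was deposited as a table of its own, and any difference in how the tables were made cannot be told apart from sex.

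The HR against Control difference was next compared between the sexes. The interaction of sex and linetype was called for 0 of 9 members and for 0 of 16757 genes (edgeR, background 0%, with 77 genes at an unadjusted *p* under 0.05 and 0 called by DESeq2). All 9 interaction estimates were below 0, with a median of -0.27, but each interval included 0, and for *Fos* it ran from -2.88 to 1.45. In males alone 0 of 9 members were called against 0 of 16361 genes (background 0%, 184 at an unadjusted *p* under 0.05, 15 by DESeq2), and *Fos* was at 0.64 (SE 0.40, unadjusted *p* = 0.152). In females alone 0 of 9 were called against 0 of 16326 genes (background 0%, 316 at an unadjusted *p* under 0.05, 6 by DESeq2), and *Fos* was at -0.06 (SE 0.85). Without the female pools of HR line 3 and Control line 5 the female difference of *Fos* was -1.11 (SE 0.49, unadjusted *p* = 0.0583) and that of *Egr1* was -1.15 (SE 0.40, unadjusted *p* = 0.0255), both with an adjusted *p* of 0.892. With these pools left out the interaction of *Fos* was -1.75 (SE 0.68, edgeR, unadjusted *p* = 0.0243, adjusted *p* = 0.9999). As the 2 pools were picked by their high member values, the *p* values without them are descriptions and no test of linetype.

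The second question was whether the members rose and fell together from pool to pool. Within a sex the 36 pairs had a median Pearson's r of 0.40 in males and 0.73 in females, against -0.00125 and -0.00155 over all pairs of genes tested. The coefficient was above 0 for 32 pairs in males and for all 36 in females. Exact two-sided permutation tests with Benjamini-Hochberg adjustment over all 72 tests called 18 pairs, 3 in males and 15 in females, and 0 pairs were called in both sexes. With Spearman's rho 12 pairs were called.

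In males *Fos* and *Egr1* formed the tightest pair (n = 8, r = 0.93, exact permutation *p* = 0.000124, adjusted *p* = 0.00625, rho = 0.95, exact *p* = 0.00114, adjusted *p* = 0.0205), and r was 0.93 without the 2 libraries farthest from the median of *Fos*. *Junb* with *Egr1* had r = 0.90 (exact *p* = 0.00799, adjusted *p* = 0.0376, rho = 0.74, exact *p* = 0.0458, adjusted *p* = 0.114) and 0.85 without the 2 farthest. *Egr3* with *Arc* had r = 0.84 (exact *p* = 0.00647, adjusted *p* = 0.0333, rho = 0.79, exact *p* = 0.0279, adjusted *p* = 0.0958) and 0.70 without the 2 farthest, where the exact *p* was 0.176. *Npas4* in males was nearly unrelated to *Fos* (r = 0.05) and to *Egr1* (r = 0.04).

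In females the called pairs joined *Fos*, *Fosb*, *Junb*, *Npas4*, *Nr4a1* and *Ier2* with one another, and none involved *Egr1*, *Egr3* or *Arc*. These 6 genes form 15 pairs, and all 15 were called. The highest was *Fosb* with *Junb* (n = 8, r = 0.97, exact *p* = 0.000496, adjusted *p* = 0.0119, rho = 0.93, exact *p* = 0.00223, adjusted *p* = 0.0321). *Junb* with *Npas4* had r = 0.96 (exact *p* = 0.00114, adjusted *p* = 0.0137, rho = 0.88, exact *p* = 0.00724, adjusted *p* = 0.0435), and *Fos* with *Nr4a1* had r = 0.88 (exact *p* = 0.00469, adjusted *p* = 0.026, rho = 0.83, exact *p* = 0.0154, adjusted *p* = 0.0692).

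Part of the female relation rested on HR line 3 and Control line 5, which were far from the other 6 pools in most of these genes. Without both pools r stayed above 0 in all 36 female pairs and its median was 0.64. Of these pairs 0 were called and 9 had an unadjusted exact *p* under 0.05. The smallest possible exact *p* is larger with 6 pools than with all, so the loss of calls alone does not show a weaker relation. *Fosb* with *Npas4* kept r = 0.96 (n = 6, exact *p* = 0.00278, adjusted *p* = 0.0667) and *Junb* with *Ier2* r = 0.91 (n = 6, exact *p* = 0.0111, adjusted *p* = 0.114), whereas *Fos* with *Nr4a1* went to 0.46 (exact *p* = 0.41) and *Npas4* with *Nr4a1* to 0.34 (exact *p* = 0.485). Over both sexes, 4 pairs were called without HR line 3 and 7 without Control line 5. The difference between the sexes in these coefficients was not tested.

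**Figure D3:**
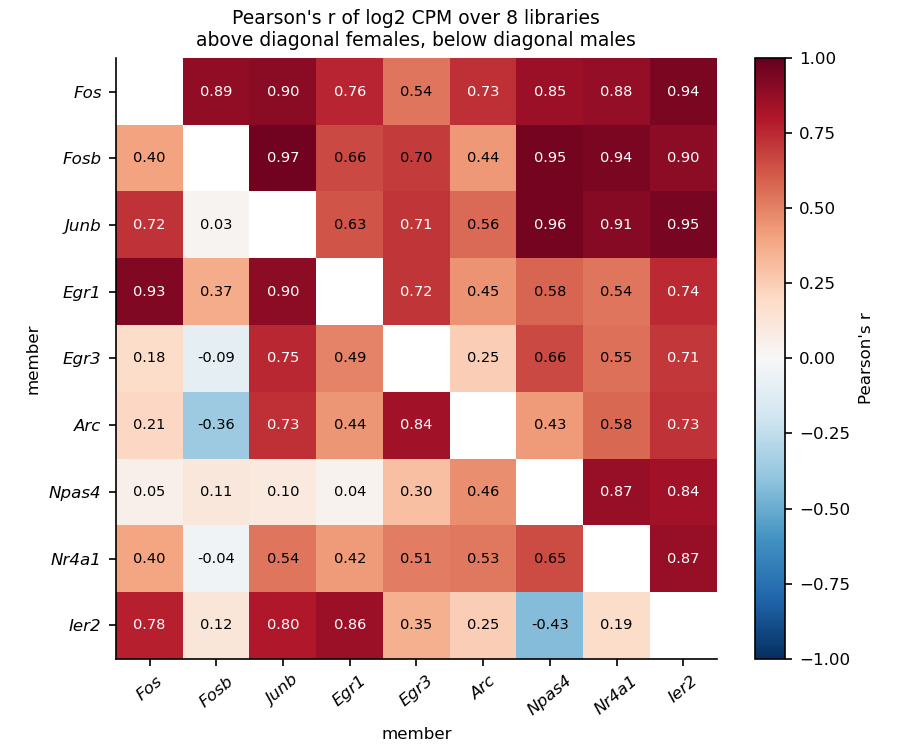
The matrix gives Pearson's r of log2 CPM for each pair of members over 8 libraries, with females above the diagonal, males below it and color from -1 (blue) to 1 (red). All values above the diagonal exceed 0, and those below it are highest for *Fos* with *Egr1* and *Junb* with *Egr1* and lowest, at -0.43, for *Npas4* with *Ier2*.

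Ranked among all genes by their likeness to *Fos* (r over 16 libraries after centering within sex, n = 16, no test), *Junb* was 4th with r = 0.86, *Ier2* 6th with 0.86, *Egr1* 24th with 0.79 and *Fosb* 32nd with 0.78. *Nr4a1* was 93rd with 0.73, *Npas4* 345th with 0.65, *Arc* 915th with 0.57 and *Egr3* 3029th with 0.38. The 5 genes outside the list that were most like *Fos* were *Dusp1*, which encodes a phosphatase of MAP kinases (r = 0.87), *Gbp2*, an interferon-induced GTPase (0.87), *Spry2*, an inhibitor of growth factor signaling (0.86), *Zfp36*, whose product destabilizes short-lived mRNAs (0.86), and *Afap1l1* (0.84). *Dusp1* and *Zfp36* are themselves immediate early genes. Without the female pools of HR line 3 and Control line 5 the order changed. *Egr1* was then 1st with r = 0.90, *Ier2* 4th with 0.78 and *Junb* 18th with 0.68, whereas *Fosb* was 453rd with 0.43, *Nr4a1* 705th with 0.39 and *Npas4* 2467th with 0.24. *Dusp1* kept r = 0.87, while *Gbp2* went to 0.66.

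By likeness to the mean of the 9 members, *Afap1l1* (r = 0.93), *Srl* (0.92), *Zfp36* (0.92), *Triobp* (0.91), *Marveld1* (0.90), *Tnip3* (0.90), *Sepn1* (0.90), *Tgfb1i1* (0.90) and *Cables2* (0.90) were among the first 10. Of these only *Zfp36* is an immediate early gene. *Srl* encodes a calcium-binding protein of the sarcoplasmic reticulum, *Triobp* binds actin, and *Tgfb1i1* encodes a focal adhesion protein of smooth muscle. Each of these 9 was highest in the female pool of HR line 3 or of Control line 5, and for *Tgfb1i1* the range was 8.99 to 43.4 CPM. Without those 2 pools their r with the mean of the members was 0.79 to 0.87, from *Cables2* to *Zfp36*.

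The other immediate early genes shared much of this pattern. Of the 48 that were tested, 26 (54.2%) had r above 0.5 with the mean of the members, with a median of 0.53, against 19.5% and a median of -0.02 over the genes tested that were no members. Without the female pools of HR line 3 and Control line 5 the count was 14 of 48 (29.2%), with a median of 0.23, against 14.5% and -0.03. Over all 16 libraries *Klf2* had r = 0.89, *Sik1* 0.87, *Egr2* 0.84 and *Dusp6* 0.81. *Jun*, the partner of *Fos* with the best-known role in AP-1, had r = 0.28, *Gadd45b* -0.55 and *Maff* -0.34. Of the late activity-induced genes 2 of 13 had r above 0.5, of the upstream regulators 9 of 32, with *Elk3* at 0.83, *Nab1* at 0.81 and *Srf* at 0.79, of the heat shock genes 2 of 12, with *Bag3* at 0.78, and of the glucocorticoid response genes 3 of 12, with *Sgk1* at 0.80. The shares of these 4 lists were 15.4%, 28.1%, 16.7% and 25.0%, against the 19.5% of genes that were no members. Their median r was 0.17, 0.10, -0.27 and 0.06, and their lowest r was -0.38, -0.76, -0.73 and -0.78. Without the 2 pools the counts of these 4 lists were 2, 7, 1 and 2.

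None of these lists held a gene that was called between HR and Control lines (edgeR, 0 of 48, 0 of 13, 0 of 32, 0 of 12 and 0 of 12), and at an unadjusted *p* under 0.05 the counts were 1, 1, 0, 0 and 0, against the 3.3% of all genes. Their median log2 fold changes were -0.01, 0.04, -0.02, 0.05 and 0.02. The smallest *p* values of the early genes were those of *Maff*, a small MAF factor (log2 fold change 0.40, unadjusted *p* = 0.0307), and *Gadd45b*, a stress-response gene (0.19, unadjusted *p* = 0.115). Of the upstream regulators they were those of *Mef2c* (-0.16, unadjusted *p* = 0.155) and *Crtc1* (-0.07, unadjusted *p* = 0.289), of the heat shock genes *Hspd1* (0.07, unadjusted *p* = 0.146) and *Hspa8* (0.10, unadjusted *p* = 0.292), and of the glucocorticoid response genes *Mt2* (0.25, unadjusted *p* = 0.252) and *Sgk1* (-0.24, unadjusted *p* = 0.413).

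*S100a5*, a calcium-binding protein whose level in olfactory sensory neurons depends on their activity, was the late gene with the smallest *p*. It ran from 5.98 to 21.0 CPM in HR libraries, with a median of 13.9, and from 2.34 to 14.9 CPM in Control libraries, with a median of 5.37. The highest values were those of HR lines 7 and 8, at 16.7 and 19.2 CPM in males and 19.0 and 21.0 CPM in females. HR lines 3 and 6, at 8.01 and 5.98 CPM in males and 6.17 and 11.2 CPM in females, lay within the range of all Control libraries. With counts summed per line 0 genes were called. In the fit that takes the pools of a line as separate samples, the log2 fold change of *S100a5* was 1.10 (SE 0.39, interval 0.27 to 1.92, unadjusted *p* = 0.0122, adjusted *p* = 0.9997), and the linetypes overlapped. The potassium channel *Kcna1* followed with -0.24 (unadjusted *p* = 0.138). *S100a5* had r = -0.38 with the mean of the members.

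Markers of other cells of the VNO moved with the members. The 5 markers of vascular smooth muscle, which surrounds the large vessel that pumps fluid into the organ, had a summed level of 1078 CPM in the female pool of HR line 3 and 1518 CPM in that of Control line 5, against 95.4 to 543 CPM in the other 6 female pools, and all 5 were higher in both pools than in every other female pool. *Acta2* was at 362 and 556 CPM in these pools against 30.8 to 169 CPM, and *Myh11* at 462 and 617 CPM against 7.24 to 238 CPM. All 6 endothelial markers and 4 of 8 immune markers were also higher in both pools, at sums of 119 and 156 CPM against 45.0 to 83.1 CPM for endothelium and 350 and 305 CPM against 105 to 143 CPM for immune cells. Most of the immune sum was *Lyz2*, at 260 and 210 CPM against 35.8 to 69.3 CPM, and the other 7 immune markers summed to 90.2 and 94.2 CPM against 62.9 to 75.8 CPM. *Cd68* and *C1qa* lay within the range of the other females.

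The markers of VSNs went the other way. Their sum was 3199 CPM in HR line 3 and 2690 CPM in Control line 5 females, against 3842 to 4906 CPM in the other females, and of the 8 markers with counts 5 were lower in both pools than in every other female pool. *Ano1*, at 217 CPM in both, lay within the 168 to 219 CPM of the others. *Ncam2*, at 37.7 and 34.7 CPM, also lay within the others, at 32.6 to 54.5 CPM. *Omp* was at 1597 and 1267 CPM against 1854 to 2518 CPM, and *Gng13* at 1.51 and 2.30 CPM against 25.0 to 49.1 CPM. The 2 male pools with the highest mean of the members, HR line 3 and Control line 4, had smooth muscle sums of 863 and 1061 CPM against 158 to 801 CPM in the other 6, and VSN sums of 3518 and 3845 CPM against 3924 to 5138 CPM. CPM is a share of the scaled library. In tissue of many cell types, fewer cells of a type, less RNA per cell and more RNA from other cells cannot be told apart.

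As a description with no test, since the mean is a score over the members, its r with the log2 sum of the smooth muscle markers was 0.71 in males (n = 8, rho = 0.69) and 0.92 in females (n = 8, rho = 0.95), and 0.80 in the 6 female pools other than HR line 3 and Control line 5. With the VSN sum r was -0.64 in males (rho = -0.52) and -0.84 in females (rho = -0.71), and -0.61 in those 6 pools. Over the 16 libraries centered within sex r was 0.73 for respiratory ciliated cells, 0.72 for endothelium, 0.69 for fibroblasts and cartilage, 0.63 for immune cells, 0.53 for nasal glands, 0.43 for red blood cells, 0.25 for olfactory glia, -0.11 for immature neurons and -0.51 for skeletal muscle. In the 14 libraries without the 2 female pools these were 0.73 for ciliated cells, 0.48 for endothelium, 0.72 for fibroblasts and cartilage, 0.42 for immune cells, 0.45 for nasal glands, 0.42 for red blood cells, 0.27 for olfactory glia, 0.25 for immature neurons and -0.38 for skeletal muscle. Within the 8 female pools r went from 0.81 to 0.43 for endothelium, from 0.86 to 0.26 for immune cells and from 0.34 to 0.067 for red blood cells when the 2 were left out. The red blood cell value is that of *Alas2* alone, as the 4 hemoglobin genes were listed at 0. The part of these cell types in the level of the early genes was not tested.

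**Figure D4:**
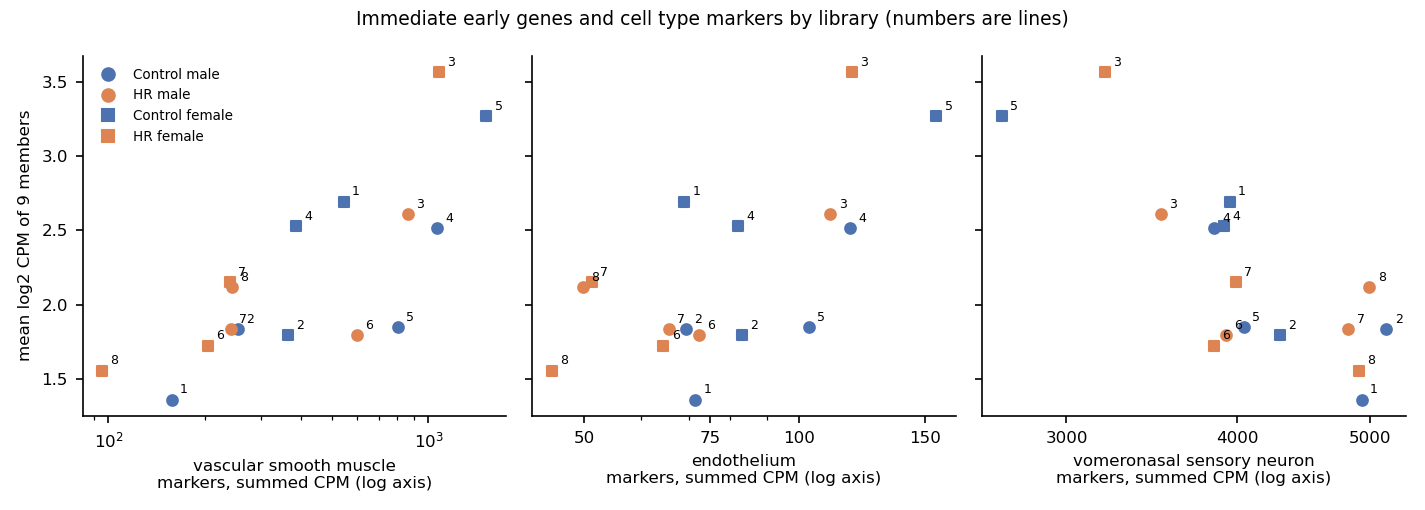
The mean log2 CPM of the 9 members in each of the 16 libraries is plotted against the summed CPM of markers of vascular smooth muscle, endothelium and VSNs on log axes, with symbols by sex and linetype and the line number beside each point. The female pools of HR line 3 and Control line 5 lie at the top, at the right for smooth muscle and endothelium and at the left for VSNs.

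The last question was whether the level belonged to a line, in which case its male and female pools would be alike. Over the 8 lines r between the male and the female pool had a median of 0.10 for the 9 members, against 0.51 for all genes tested, and 0 of 9 had an exact permutation *p* under 0.05. *Fos* (n = 8, r = -0.21, exact *p* = 0.606, rho = -0.12, exact *p* = 0.793) had the lowest value of the 9, at the 6.68th percentile of all genes, and r was 0.23 without the 2 lines farthest from the median. *Ier2* (r = -0.13, exact *p* = 0.748) and *Fosb* (r = -0.04, exact *p* = 0.93) were also below 0, and went to 0.0096 and 0.30 without the 2 farthest lines. *Junb* and *Arc* both had r = 0.10, and without the 2 farthest lines these were -0.49 and 0.48, so that the coefficients of these 5 genes rest on those lines.

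*Egr3* (r = 0.59, exact *p* = 0.12, rho = 0.55, exact *p* = 0.171), *Nr4a1* (r = 0.54, exact *p* = 0.16, rho = 0.52, exact *p* = 0.197) and *Npas4* (r = 0.50, exact *p* = 0.212, rho = 0.60, exact *p* = 0.132) had the highest values, near the median of all genes. After adjustment for the 9 correlations computed, the exact *p* of these 3 was 0.635 and those of the other 6 were 0.917 to 0.93. *Egr3* was high in both sexes of HR line 3 and Control line 4, and without the 2 lines farthest from its median r was -0.23, so that its value rests on those lines. For *Nr4a1* r was 0.89 (exact *p* = 0.00833) without the 2 farthest lines.

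**Figure D5:**
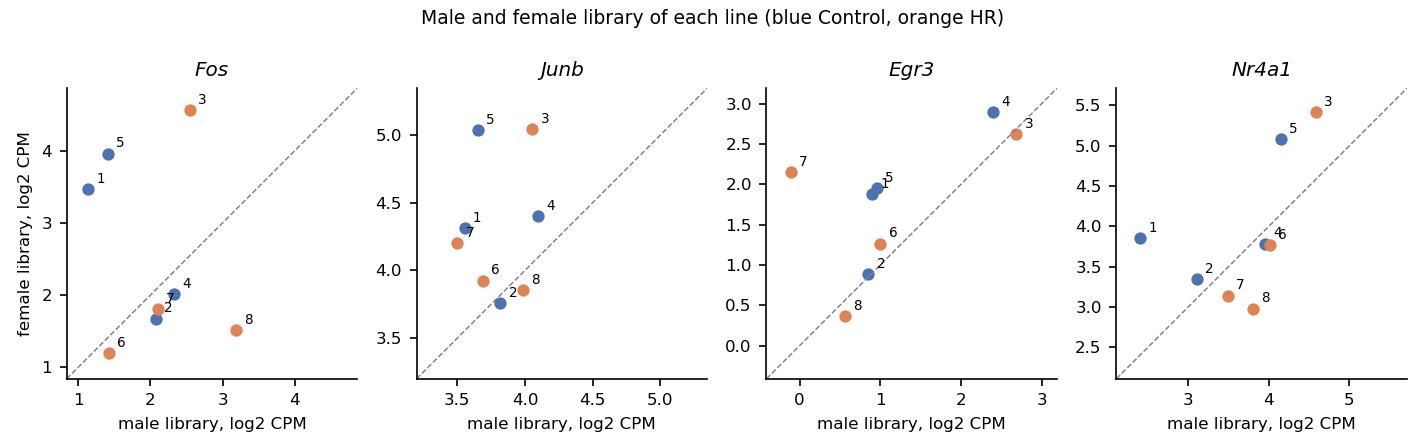
The log2 CPM of the female library is plotted against that of the male library for each of the 8 lines, in blue for Control and orange for HR lines, with a dashed line where both are equal. For *Fos* the lines that were high in females were not those that were high in males apart from HR line 3, while *Egr3* was high in both sexes of HR line 3 and Control line 4.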

How the data were processed

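Total RNA from VNOs kept in RNAlater was depleted of ribosomal RNA and sequenced as 75 nt single-end reads. Per the methods and the labels, the authors aligned reads with STAR 2.6.1d to GRCm38, with unique matches and no mismatches, and deposited per sex a table of raw counts per gene and a table of RPKM from the Cufflinks suite. The counter, its annotation and its strand setting are not given in the sources used here. From the counts of the males, 4 rows that name no gene were left out, and they held 16.1% to 17.7% (unmapped), 0% (multimapping), 16.7% to 18.5% (no feature) and 0.837% to 1.09% (ambiguous) of the reads. In each of the deposited files 4 rows with a repeated gene name were left out.

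Counts of 24407 genes in both tables were joined, filtered with filterByExpr (minimum count 10), scaled by TMM and fitted with edgeR 4.0.16 (quasi-likelihood test, sex and linetype, R 4.3.3). Log2 CPM used a prior count of 2. DESeq2 1.42.0, limma 3.58.1 on voom values with the line as a random effect and on log2(RPKM + 1) or log2(RPKM + 0.1), RLE scaling, no filter, counts summed per line, a line block and leaving out each line were the alternatives. Permutation tests used Python 3.11.15 and numpy 2.4.6. The fits were tested on simulated data, and in a simulated HR against Control comparison of 16507 genes edgeR called 156 of 200 genes changed by 2-fold. The changed genes were picked at random, and the simulated libraries had no effect shared by the 2 pools of a line. This share is thus not the power for the members.

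The line number pairs the sexes: over all genes, male and female deviations of a line correlated at 0.32 to 0.71, and 6 of 8 male libraries were most like their own line. The same-sex libraries of a linetype are separate lines, so *p* values within 1 sex, over line means or with counts summed per line measure the spread between lines. The main fit on 16 libraries had no term for the line. Its *p* values mix that spread with the difference between the male and female pool of a line. The members, the gene lists and the markers were chosen with earlier results of these data known. The text names all 9 members, the 10 genes most like their mean, of which 1 is not reported here, the 5 most like *Fos*, and from each list the genes called or otherwise the 2 with the smallest *p* between linetypes; other genes of a list and single markers were named after their values were seen.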

Additional observations from a re-analysis of the deposited data

Results flagged for a closer look

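In each of the 36 combinations of member and group of 4 libraries, the lowest and the highest value were compared with the others on the log2 scale (Dixon's ratio, critical value 0.829), and chance exceeds it in about 1 in 20 groups. 1 value did so. *Egr3* in the male pool of Control line 4 was at 5.21 CPM against 1.75 to 1.89 CPM in the other 3 Control male pools, a gap of 0.93 of the range. That pool was also the second highest of the males in the mean of the members. The female pools of HR line 3 and Control line 5 did not exceed the limit within their groups of 4.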

How the results depend on the processing

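No member was called in any of the 5 comparisons under any alternative that was run, in 66 of 66 repeats of these counts, nor between male and female pools of a line or over line means. The smallest adjusted *p* of a member was 0.548 for HR against Control and 0.133 for female against male. The direction was less firm: 26 of 144 repeats of the HR against Control log2 fold changes and 6 of 126 of the female against male ones changed sign, and the causes were not tested. With 1 line left out, HR against Control ran from -0.41 to 0.56 for *Fos*, -0.17 to 0.27 for *Fosb*, -0.25 to 0.069 for *Junb*, -0.40 to 0.42 for *Egr1*, -0.78 to 0.36 for *Egr3*, -1.0 to 0.61 for *Npas4*, -0.29 to 0.62 for *Nr4a1* and -0.12 to 0.11 for *Ier2*. Without the female pools of HR line 3 and Control line 5, an alternative chosen after seeing the data, it was -0.095 for *Fos*, -0.23 for *Egr1* and -0.019 for *Ier2*, and female against male was -0.022 for *Fos*, -0.027 for *Fosb*, -0.059 for *Egr1*, -0.043 for *Npas4*, -0.28 for *Nr4a1* and -0.050 for *Ier2*. With limma-voom and the line as a random effect, HR against Control was -0.18 for *Fos*, -0.18 for *Egr1* and -0.049 for *Ier2*, with counts summed per line -0.0064 for *Ier2*, on log2(RPKM + 1) -0.025 for *Egr1*, and on log2(RPKM + 0.1) -0.049 for *Egr1* and -0.00033 for *Ier2*.

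Over all genes, HR against Control called 4 genes, 30 with DESeq2, 0 with counts summed per line and with limma-voom, 2 on log2(RPKM + 0.1) and 1 to 17 with 1 line left out. Female against male called 31, 19 without the filter, 185 with DESeq2, 136 on log2(RPKM + 1), 87 with the line as a replicate block and 13 to 25 with 1 line left out. DESeq2 called 15 genes in males and 6 in females where edgeR called 0, and with 1 line left out edgeR called 0 to 1 and 0 to 2. The 18 pairs of members called became 0 without the 2 farthest libraries of each pair, where 6 libraries are left, 1 without the 2 female pools and 4 to 17 with 1 line left out. Leaving out libraries also raises the smallest possible exact *p*, which can lower such counts by itself. The block changed no call of a member. At 9 to 116 reads a library, *Npas4* is limited by depth.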
